A study of Blastobotrys raffinosifermentans with 8 samples.

Results

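The 100 genes described here are those of the yeast Blastobotrys raffinosifermentans whose array signal stood highest 30 min after a change of medium, both with and without protocatechuic acid, and was lower before and after. They were taken from 6065 identifiers, and 801 of these (13.2%) had their highest deposited log2 value at 30 min in both media. Each identifier carried a letter A to D, read here as its chromosome, and at least 3 probes on the array. For each medium, the highest value at the other time points was subtracted from the value at 30 min, and the lower of these differences was the score of the gene. The members were thus chosen by the deposited log2 values of all 8 arrays. A score above 0.2 was reached by 373 identifiers, 32 of which were left out because their 30 min values in the 2 media lay 0.8 or more apart. The 100 highest of the remaining 341 scores made up the set. The 30 min pattern is therefore the reason these genes were chosen and is given below as a description without a test.

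The samples were wild-type cells of strain LS3, grown overnight in minimal medium (YMM) with glucose and sodium nitrate as nitrogen source. They were then pelleted and placed in fresh YMM with sodium nitrate. By the paper's recipe, the overnight medium held more glucose than the fresh medium. The fresh medium held 1% glucose alone (Glc) or 1% glucose together with 0.5% protocatechuic acid (PA), and cells were taken early, at 15 min and 30 min, and later, at 2 h and 5 h. No genetic change, deletion or transgene was involved, and no sample was taken before the shift. Each of the 8 combinations of medium and time was measured once, so there were no replicates and no spread between cultures could be measured at any single time point.

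Protocatechuic acid is a hydroxylated aromatic acid related to the breakdown products of tannins, and this yeast can use it as a carbon source beside glucose. A move into fresh medium is itself a change for the cells, whatever the carbon source, and both arms of the experiment went through it. The array reads the net level of each mRNA, which is the balance of its synthesis and its decay. The files pair none of the identifiers with a gene name or a function, so 4 genes are named by identifier and the others are described by their place in the ranking.

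All 8 arrays lay on 1 slide, with each time point in 1 slide column and each medium in 1 slide row. Time and slide column, and medium and slide row, therefore cannot be told apart. The share of yeast spots well above background was 58.9% in Glc and 61.7% in PA at 30 min, 59% in PA at 5 h, and between 64.7% and 70.2% on the other arrays. The 10 spike-in control probes, which report RNA added at labelling and not yeast genes, were also slightly raised at 30 min: 6 of 10 had their highest value there in both media, with scores between -0.18 and 0.13. The lowest score in the set was 0.639. The part of slide position in the 30 min pattern was not tested.

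The scores ran from 2.58 to 0.639 with a median of 0.96 on the deposited log2 scale. A score of at least 2 was reached by 6 genes, and 49 had a score of at least 1. The edge of the set was not a gap. The gene in place 99 scored 0.647 and the gene in place 100 scored 0.639, while the first 2 left outside scored 0.636 and 0.634.

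Scores and spike-in values are on the deposited log2 scale throughout. Unless the deposited values are named, the gene levels and differences that follow are log2 intensities recomputed from the scanner files. They are given for each array as the median over the probes of a gene. On this recomputed scale all 100 genes again had their highest value at 30 min in both media. The median over the 100 genes on the Glc arrays went from 6.56 at 15 min to 7.97 at 30 min, then to 6.71 at 2 h and 6.46 at 5 h. In PA it was 6.38, 8.04, 6.87 and 6.39 in the same order of time. Over all 6035 genes tested the median stayed between 6.44 and 6.46, as the quantile normalization fixes it.

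**Figure D1:**
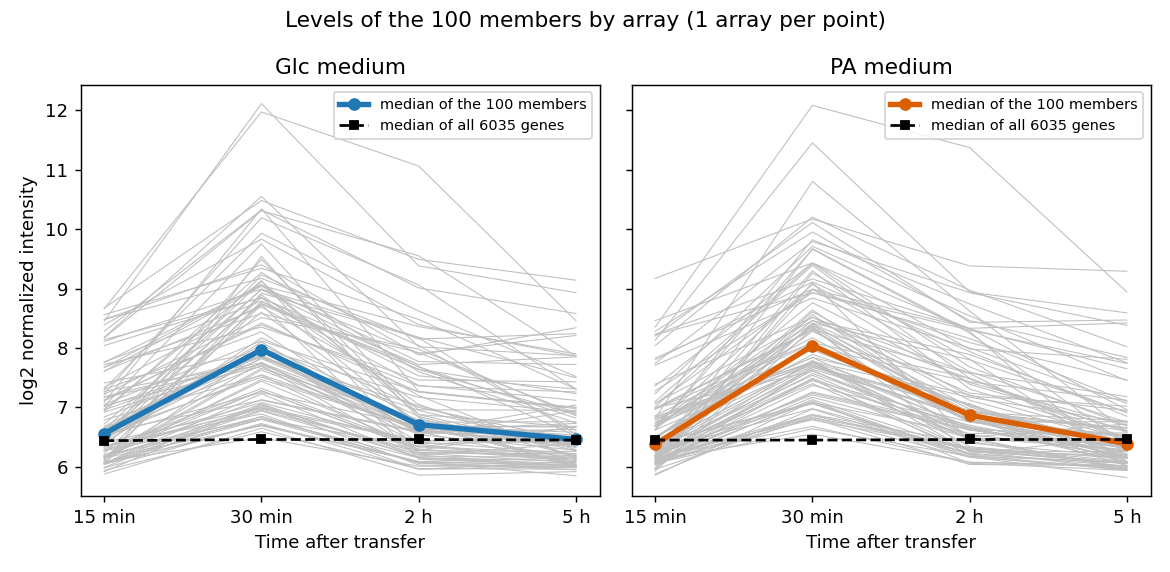
Log2 normalized intensity (y axis) of each of the 100 genes (grey lines, 1 array per point) by time after transfer (x axis) in Glc and in PA, with the median over the 100 genes (coloured) and over all 6035 genes (dashed). The coloured median stands at 7.97 in Glc and 8.04 in PA at 30 min and lies between 6.38 and 6.87 on the other arrays.

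The size of the peak differed widely among the genes. In Glc the level at 30 min was 1.32-fold to 12.6-fold that at 15 min, with a median of 2.15-fold. This covers the 96 genes with at least 1 probe well above background at both times. In PA the same ratio ran from 1.33-fold to 15.8-fold, with a median of 2.52-fold over 97 genes. From 30 min to 5 h the median fall was 1.31 log2 units in Glc and 1.51 log2 units in PA, and the steepest falls were 3.51 and 4.2 log2 units. All probes of a gene were well above background at 15 min for 53 genes in Glc and 46 in PA, and at 5 h for 47 and 29. Levels are medians over all probes, so for other genes the ratio or fall can rest on a level near background.

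At 30 min every gene of the set had at least 1 probe well above background in both media. At other time points 12 genes had none on at least 1 array, in 22 comparisons with 30 min, and there only a bound can be given. The bounds ran from at least 1.57-fold to at least 5.96-fold higher at 30 min. Of the 22, 10 concerned PA at 5 h. The remaining 88 genes had a probe well above background on all 8 arrays.

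ARAD1D06446g had the highest score. Its level in Glc rose from 8.45 at 15 min to 12.11 at 30 min, and then came to 9.38 at 2 h and 8.93 at 5 h. In PA it was 8.13, 11.45, 8.94 and 8.59. The gene stood out on both 30 min arrays, and it was lower in PA than in Glc at every time point. At 30 min it was 12.6-fold above the 15 min level in Glc and 9.97-fold above it in PA. It did not fall back to its 15 min level within 5 h in either medium. Its 6 probes differed strongly in brightness, with values between 7.29 and 14.19 on the Glc 30 min array, but all 6 were highest at 30 min in both media.

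ARAD1D50446g came second, with a score of 2.43. Its level in Glc went from 6.97 at 15 min to 9.13 at 30 min, and then to 6.24 at 2 h and 6.22 at 5 h. In PA it was 6.08, 9.1, 6.43 and 5.99. The 2 media were alike at 30 min (difference -0.02) and farthest apart at 15 min, when the PA value was lower by a log2 difference of -0.89. At 15 min all 10 probes in Glc but 3 in PA were well above background, so that PA level lay near background. All 10 probes of this gene were highest at 30 min in both media.

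ARAD1D50358g and ARAD1D50292g were, after these, the genes with the deepest fall from 30 min to 5 h, taking the lower fall of the 2 media in the deposited table. In order of time, ARAD1D50358g measured 6.47, 9.49, 6.83 and 5.99 in Glc, and 6.21, 9.67, 8.28 and 5.97 in PA. ARAD1D50292g measured 6.04, 9.54, 6.59 and 6.04 in Glc, and 5.98, 9.26, 7.81 and 6.09 in PA. For both genes the 2 media gave closely similar values at 15 min, 30 min and 5 h. The rule had bounded the difference at 30 min, and several of the other levels lay near background. At 5 h, 3 of 10 probes in Glc and 2 in PA were well above background for ARAD1D50358g. For ARAD1D50292g it was 3 of 10 in each medium, at 15 min and at 5 h. At 2 h they did not: the PA level was still high, and the Glc level had already come down. From 30 min to 2 h ARAD1D50358g fell by 2.66 log2 units in Glc and 1.39 in PA, and ARAD1D50292g by 2.95 in Glc and 1.45 in PA.

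**Figure D2:**
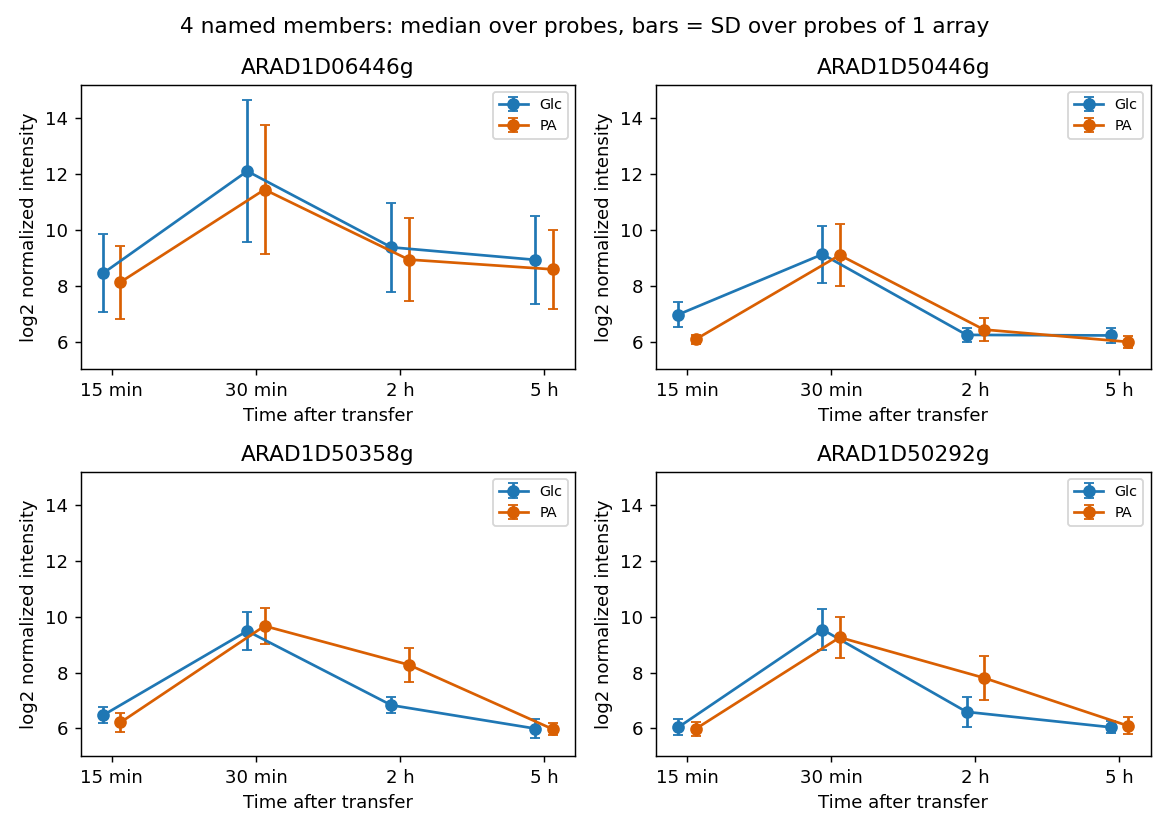
Log2 normalized intensity (y axis; median over probes, bars give the SD over the probes of 1 array, not a replicate error) of the 4 named genes at the 4 time points (x axis) in Glc (blue) and PA (orange). ARAD1D50358g and ARAD1D50292g stand higher in PA at 2 h, at 8.28 against 6.83 and 7.81 against 6.59.

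Other genes near the top of the ranking had similar shapes. The third gene, on chromosome D, measured 6.12, 8.73, 6.13 and 6.02 in Glc and 5.93, 8.33, 6.47 and 5.96 in PA. Of its 10 probes, 3 in Glc and 2 in PA were well above background at 15 min, and 2 and 1 at 5 h. The fifth gene, also on chromosome D, measured 7.09, 10.34, 7.27 and 7 in Glc and 6.82, 10.8, 8.62 and 6.59 in PA. In PA it rose by 3.98 log2 units from 15 min to 30 min and fell by 4.2 from 30 min to 5 h, the largest rise and the largest fall in the set on this scale. The gene in place 92 had a plateau and not a spike, with 8.66, 11.97, 11.06 and 8.46 in Glc and 8.35, 12.08, 11.37 and 8.94 in PA. Its low score of 0.68 came from the high 2 h values, and it rose by 3.31 and 3.73 log2 units from 15 min to 30 min.

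The pattern was shared by the probes of a gene. The 100 genes had 926 probes, and 883 of these (95.4%) were individually highest at 30 min in both media. For 73 genes this held for every probe, and for 1 gene it held for 4 of 10 probes. The genes were chosen on the median over these same probes, so a high share follows largely from the choice. The share over the probes of other genes was not counted. Probes of a gene read the same RNA and are no replicates. The median SD over the probes of a gene at 30 min was 0.62 in Glc and 0.64 in PA. The full number of 10 probes was present for 77% of the set and for 78% of all eligible identifiers. A probe name ending in X, a mark that the files do not explain, was found for 36 probes of 9 genes.

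The choice did not ask which other time point came closest to 30 min, but the level there set the score. In Glc the second highest level was at 2 h for 61 genes, at 15 min for 29 and at 5 h for 10. In PA it was at 2 h for 80 genes, at 15 min for 14 and at 5 h for 6. Over all genes tested, the highest of these 3 time points was 2 h for 36.8%, 15 min for 34.4% and 5 h for 28.8% in Glc, and 2 h for 31.3%, 15 min for 34.5% and 5 h for 34.2% in PA. Among the other 701 identifiers highest at 30 min in both media, 2 h came second for 39.2% in Glc and 47.4% in PA, by the deposited log2 values. Both media had 2 h in second place for 53 genes, and both had 15 min for 9. A further 19 genes had 15 min in second place in Glc and 2 h in PA, while 3 had the opposite arrangement.

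Differences among the time points other than 30 min were also computed within each medium. In Glc the median difference over the 100 genes was 0.1 from 15 min to 2 h (0.02 over all genes) and -0.2 from 2 h to 5 h (-0.01 over all genes). In PA these medians were 0.39 (0.04 over all genes) and -0.43 (0.01 over all genes). From 2 h to 5 h the level fell by a log2 difference of 1 or more for 11 genes of the set in Glc, against 1.56% of all genes, and for 12 in PA, against 1.89%. No gene of the set rose by that much in this interval in either medium, against 2.32% of all genes in Glc and 1.21% in PA. From 15 min to 2 h a rise of that size was seen for 9 genes in Glc and 14 in PA, against 4.09% and 4.89% of all genes, and no gene fell by that much (5.2% and 5.88% of all genes). Between 15 min and 5 h the medians were -0.07 in Glc and -0.04 in PA. In Glc 3 genes fell and 0 rose by a log2 difference of 1 or more (4.04% and 2.67% of all genes). In PA 1 gene fell and 1 rose (5.65% and 4.72%).

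**Figure D3:**
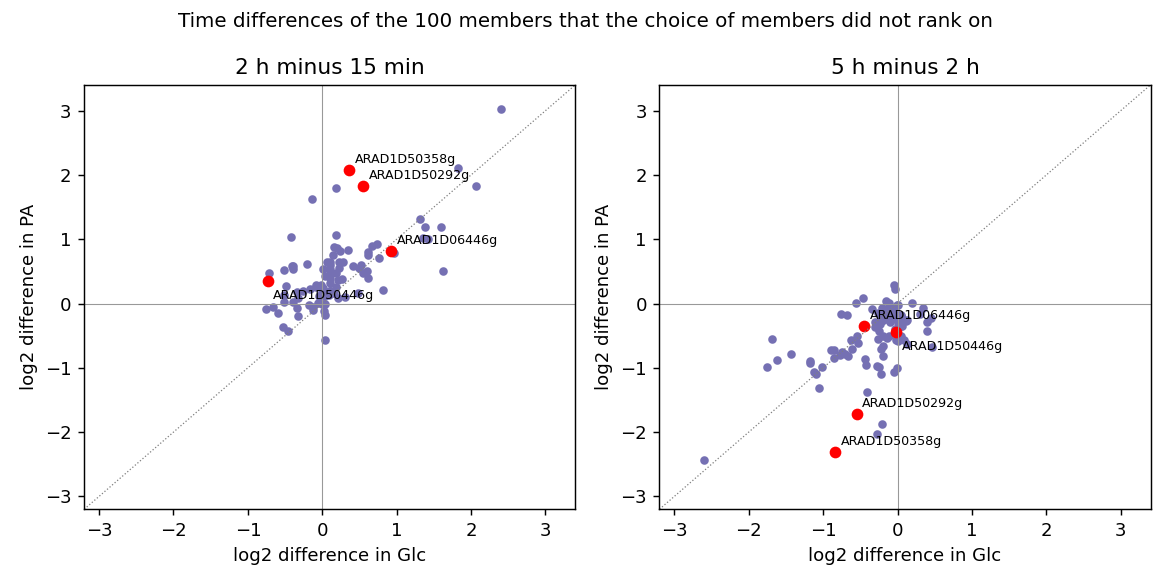
Log2 difference in Glc (x axis) against the log2 difference in PA (y axis) for the 100 genes, for 2 h minus 15 min and for 5 h minus 2 h, with the 4 named genes in red and the line of equal differences dotted. ARAD1D50358g and ARAD1D50292g lie away from the line in both panels, higher in PA for 2 h minus 15 min and lower in PA for 5 h minus 2 h.

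These contrasts were tested with limma in an additive fit of time and medium over all 8 arrays, in which the 2 media stand in for replicates of a time point. The error of the fit includes the 30 min arrays, whose difference between media the choice of genes had bounded. The arrays of the other time points entered the choice too, through the highest value that each score subtracts. Counts for the set in these contrasts are therefore not independent of the choice. With Bonferroni adjustment over 6035 genes, 0 genes of the set passed 0.05 in any of the 3 contrasts, and the smallest adjusted p was 0.107 for 2 h minus 15 min. Over all genes 7 rose and 4 fell from 15 min to 2 h by this criterion (0.116% and 0.0663%), 5 rose and 2 fell from 15 min to 5 h (0.0829% and 0.0331%), and 1 rose and 0 fell from 2 h to 5 h (0.0166% and 0%). At an unadjusted p under 0.05, 33 genes of the set were higher at 2 h than at 15 min and 1 was lower, against 19.7% and 11.9% of all genes, and 5 were higher and 10 lower at 5 h than at 15 min, against 19.6% and 10.8%.

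With Benjamini-Hochberg adjustment, 18 genes of the set were higher at 2 h than at 15 min and 1 was lower, against 8.55% and 4.59% of all genes. Without the 30 min arrays these counts were 10 and 0, in a smaller fit for which the share of all genes was not counted. For ARAD1D06446g the difference was 0.86 (SE 0.11, limma, Benjamini-Hochberg adjusted p = 0.0163, Bonferroni adjusted p = 1). For the gene in place 92 it was 2.71 (SE 0.2, Benjamini-Hochberg adjusted p = 0.00738). From 2 h to 5 h, 3 genes of the set fell and 0 rose, against 0.0829% and 0.166% of all genes. At an unadjusted p under 0.05 the counts for this interval were 37 and 0, against 7.37% and 6.45%. From 15 min to 5 h, 4 genes fell and 0 rose, against 3.25% and 5.87%. The calls from 2 h to 5 h and from 15 min to 5 h were all lost without the 30 min arrays. How many calls that smaller fit lost over all genes was not counted, so the loss is no result about the set.

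The comparison of PA with Glc describes how the levels of the set differed between the media at each time point. The values of all 8 arrays entered the choice of genes, so counts for the set at any time point are not independent of it. At 15 min the median difference PA minus Glc over the 100 genes was -0.14 (-0.06 over all genes), and 22 genes were higher in PA, against 36.4% of all genes. A log2 difference of 1 or more was reached by 1 gene in the lower direction and by 0 in the higher, against 1.21% and 3.56% of all genes. That gene, on chromosome C in place 77, measured 8.14 in Glc and 7.06 in PA at 15 min. At 30 min the rule had kept the media close, and the differences lay between -0.66 and 0.67.

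At 2 h the direction was the other one. The median difference was 0.11 (-0.02 over all genes), and 67 of the 100 genes were higher in PA, against 44.3% of all genes. A log2 difference of 1 or more was reached by 4 genes in the higher direction, against 1.01% of all genes, and by 1 in the lower, against 0.481%. The 4 were ARAD1D50358g (1.45), the gene in place 17 on chromosome B (1.37), the fifth gene (1.35) and ARAD1D50292g (1.22). The gene in place 17 measured 7.02, 9.75, 6.88 and 6.67 in Glc and 6.63, 9.66, 8.25 and 6.37 in PA. It had only 3 probes, the fewest that the rule allowed, and 2 of them were highest at 30 min in both media. At 15 min and 5 h in both media, and at 2 h in Glc, 2 of the 3 were well above background. All 4 genes had come down to within 1 log2 unit of their 15 min level by 2 h in Glc and had not in PA. At 5 h the differences of these 4 genes between media lay between -0.41 and 0.05. The differences of single probes at 2 h ranged from 0.58 to 1.98 for ARAD1D50358g and from 0.63 to 1.6 for ARAD1D50292g, within the same pair of arrays. The 1 gene lower in PA, in place 54 on chromosome D, measured 6.56, 8.99, 8.18 and 7.5 in Glc and 6.34, 8.64, 6.84 and 6.66 in PA.

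At 5 h the median difference was -0.04 (0 over all genes), with 33 genes higher in PA against 50.4% of all genes. No gene reached a log2 difference of 1 in either direction, against 0.398% higher and 0.862% lower of all genes. With a log2 difference of 0.58 as the limit, 1 gene of the set was higher and 11 lower in PA at 15 min (7.52% and 4.74% of all genes), 7 higher and 3 lower at 2 h (3.07% and 2.24%), and 1 higher and 4 lower at 5 h (2.49% and 2.82%). These counts depended on the processing. With the scanner software's processed signal minus each array's 75th percentile, 5 genes of the set were higher and 18 lower by a log2 difference of 1 at 15 min (12.7% and 11.4% of all genes), 19 higher and 3 lower at 2 h (5.02% and 3.4%), and 1 higher and 12 lower at 5 h (3.28% and 5.62%). None of these differences at a single time point has a replicate check. The spike-in probes had median PA minus Glc differences of -0.05, -0.04, -0.13 and 0.38 in order of time, by the deposited log2 values.

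**Figure D4:**
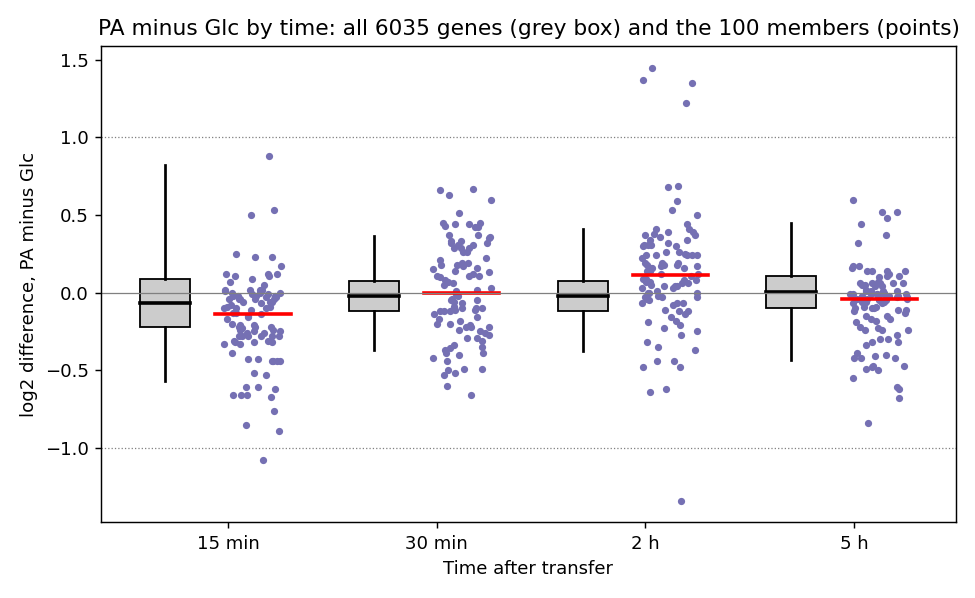
Log2 difference PA minus Glc (y axis) at each time point (x axis) for all 6035 genes (grey boxes give the quartiles and the median, whiskers the 5th and 95th percentiles) and for the 100 genes (points, red line at their median). The medians of the 100 genes are -0.14, 0, 0.11 and -0.04, and 4 points lie above 1 at 2 h.

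Averaged over the time points, the median PA minus Glc difference over the set was -0.02, the same as over all genes. In the limma fit with time as a block 0 genes of the set passed 0.05 after Bonferroni or Benjamini-Hochberg adjustment (smallest Benjamini-Hochberg adjusted p = 0.268), and 0 of all 6035 genes passed. At an unadjusted p under 0.05, 8 genes of the set were lower in PA and 0 higher, against 3.68% and 1.34% of all genes. The choice of genes had bounded their 30 min difference between media, which enters this fit. Without the 30 min arrays the counts were 7 lower and 1 higher, against 3.4% and 1.11% of all genes. ARAD1D06446g was 1 of these 8, with a mean difference of -0.44 (SE 0.08, Benjamini-Hochberg adjusted p = 0.608). It was lower in PA at 4 of 4 time points. For ARAD1D50446g the mean difference was -0.24 (SE 0.19), for ARAD1D50358g 0.34 (SE 0.31) and for ARAD1D50292g 0.23 (SE 0.27). For the last 2 the sign rested on 2 h: without that time point the means were -0.03 and -0.1.

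By the letter in their identifiers, 42 of the 100 genes lay on chromosome D, 26 on C, 23 on B and 9 on A. This was 1.94% of the eligible identifiers on D, 1.31% on C, 2.2% on B and 1.04% on A, against 1.65% in all. In the order of identifier numbers, 22 genes of the set stood directly next to another gene of the set, while 3.2% of all eligible identifiers stood next to one. Counting genes of the set no more than 3 identifiers apart as a run, there were 12 runs holding 32 genes. The share of all eligible identifiers within that distance of the set was not counted, so these numbers are a description only. Identifier order stands for gene order only as far as the numbering follows the chromosome, and neighbouring genes are not independent of each other.

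The 2 longest runs each held 5 genes of the set among 8 neighbouring identifiers. The run on chromosome D began with ARAD1D50292g, had ARAD1D50358g in place 4 and ended with ARAD1D50446g in place 8, so 3 of the 4 named genes lay in it. The third gene of the ranking was in place 7. All 8 identifiers of this run had scores above 0, from 0.07 to 2.43, but place 5 (score 0.22) had 3 probes and no probe well above background on 7 of 8 arrays, so its score compares background levels. The 2 identifiers on either side scored between -1.33 and -0.3. Only 16 eligible identifiers of chromosome D followed it, so the run also lay near the high end of the numbering. Between the high peaks stood weak ones. Place 6 measured 5.94, 6.59, 5.97 and 5.96 in Glc and 6.05, 6.81, 6.04 and 6.02 in PA, and place 3, outside the set, measured 6.16, 6.7, 6.58 and 6.4 in Glc and 6.06, 6.73, 6.43 and 6.62 in PA. Within the run the higher 2 h level in PA belonged to places 1 and 4, at 1.22 and 1.45, while the other 6 identifiers differed by -0.16 to 0.34 at that time.

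The run on chromosome B lay inside the chromosome, with 382 eligible identifiers before it and 655 after. Of its 8 identifiers 6 had scores above 0, with the highest at 1.24 in place 6. That gene measured 7.31, 9.93, 8.62 and 7.52 in Glc and 7.23, 9.71, 8.54 and 7.45 in PA, so the media differed by at most 0.22 at any time point. In places 2 and 3 most probes carried the ending X (9 and 6 of 10), and whether these probes share targets was not tested. Place 3 measured 7.34, 8.73, 7.64 and 7.23 in Glc and 8.23, 9.16, 8.33 and 6.96 in PA, and at 15 min it had the largest difference of the set in the direction of PA, at 0.88.

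**Figure D5:**
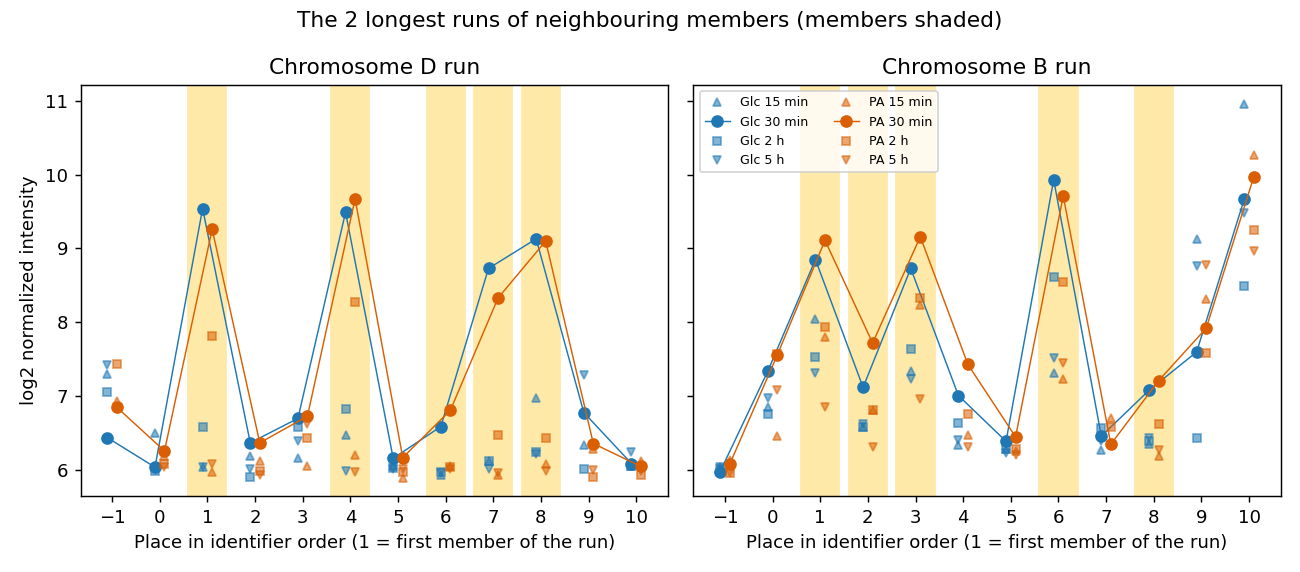
Log2 normalized intensity (y axis) on the 8 arrays for the identifiers of the 2 longest runs and 2 identifiers on either side (x axis, place in identifier order), with genes of the set shaded, 30 min as joined circles and Glc in blue, PA in orange. In the chromosome D run the 30 min circles at places 1, 4, 7 and 8 stand between 8.33 and 9.67, and the identifiers on either side have no such peak.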

How the data were processed

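Total RNA of 8 cultures was hybridized in 1 colour (Cy3) to a custom Agilent array with 56312 yeast probes. The authors deposited scanner files of Agilent Feature Extraction 11.5.1.1 (spot intensity and local background on a linear scale, and flags for spots well above background) and a table of log2 values, normalized with limma. Per the deposited files, that log2 table equals normexp correction with offset 16 and quantile normalization of all spots (largest difference 5e-09).

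The genes were chosen on the deposited table. Levels were recomputed from the deposited median intensities with limma 3.58.1 in R 4.3.3: normexp with offset 50, control spots left out, quantile normalization, log2, spots of a probe averaged, and the median over the probes of a gene. A gene was tested if 2 or more of the 8 arrays had a probe of it flagged well above background, which held for 6035 genes and all 100 of the set. The number of arrays limits the precision. The linear model with empirical Bayes held time and medium (residual degrees of freedom 3, prior 1.73). It was run on simulated data to check the size and sign of known shifts. The simulation used independent noise around a single mean per gene, so it does not measure the error rates on these arrays. P-values were adjusted by Bonferroni, as in the study, and by Benjamini-Hochberg. Differences at 1 time point have no test and were counted from a log2 difference of 1. A level with no probe well above background was replaced, for fold bounds, by the lowest signal among probes well above background where that was higher.

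By rule, the 2 genes with the highest score and the 2 others with the deepest fall to 5 h were named by identifier. The set, its rule and the comparisons were chosen with earlier results of these data known. No sequences were used here.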

Additional observations from a re-analysis of the deposited data

Results flagged for a closer look

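ARAD1D50446g moved in opposite directions in the 2 media between 15 min and 2 h, by -0.72 in Glc and by 0.35 in PA, a difference of 1.07 on the log2 scale. Of its 10 probes, 10 at 15 min and 5 at 2 h were well above background in Glc, and 3 and 9 in PA, so some of these levels lay near background. With 1 array in each medium and time point this difference was not tested.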

How the results depend on the processing

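All 100 genes were highest at 30 min in both media under every alternative except the brightest probe of each gene, where 87 were, and 2 alternatives that left 99 genes to count, all of them highest. Applying the rule to other values kept 78 to 97 of the 100 genes in the set, and 61 with the brightest probe. Counts of genes past a log2 difference of 1 between media were small and moved with the processing. With processed signal minus the 75th percentile they were 5 higher and 18 lower in PA at 15 min, 19 and 3 at 2 h, and 1 and 12 at 5 h, where the shares of all genes rose too (12.7% and 11.4%, 5.02% and 3.4%, 3.28% and 5.62%). With offset 0 they were 2 and 8 at 15 min (9.41% and 4.37% of all genes), 8 higher at 2 h (2.87%), and 3 lower at 5 h (2.34%). With offset 16 and with the deposited table they were 1 and 2 at 15 min (6.1% and 2.15% of all genes in both), and 1 lower at 5 h (1.43% and 1.44%). With the brightest probe 5 were lower at 15 min (2.39% of all genes), 2 lower at 2 h (1.18%), and 2 higher and 3 lower at 5 h (1.84% and 2.09%). Keeping only probes above background on 4 arrays gave 1 lower at 5 h (1.05% of all genes). Without scaling between arrays, an alternative added after seeing the data, 1 was higher and 0 lower at 15 min (4.66% and 0.779% of all genes), and 1 was lower at 5 h (1.91%). With a log2 difference of 0.58 the counts were 1 and 11 at 15 min, 7 and 3 at 2 h, and 1 and 4 at 5 h, and with 2 they were 0 in each case. The cause of these shifts was not tested. The median difference over the set ranged from -0.5 to -0.08 at 15 min, from 0.11 to 0.34 at 2 h and from -0.39 to -0.02 at 5 h. The lowest values at 15 min and 5 h and the highest at 2 h came with the processed signal, under which the median over all genes was -0.31, -0.04 and -0.04 at 15 min, 2 h and 5 h. Without scaling it was -0.01, 0.08 and -0.13. ARAD1D50358g and ARAD1D50292g were higher in PA at 2 h under all alternatives, by 1.38 to 2.03 and 1.17 to 2.16.

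Benjamini-Hochberg in place of Bonferroni called 18 genes higher and 1 lower from 15 min to 2 h (8.55% and 4.59% of all genes). It called 4 lower from 15 min to 5 h (3.25% of all genes) and 3 lower from 2 h to 5 h (0.0829%). These counts are not independent of the choice of genes. The calls to 5 h were all lost in the smaller fit described above, for which the loss over all genes was not counted. Without 2 h the mean PA minus Glc difference turned to -0.03 for ARAD1D50358g and to -0.1 for ARAD1D50292g. No pairing by replicate was possible because each medium and time point had 1 array and the labels give no replicate numbers. The fit with time as a block sets the media against each other within each time point, and without that block 0 genes of the set passed Bonferroni adjustment as well.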
